A study of Rattus norvegicus with 24 samples.

Results

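Nr4a1, Nr4a2 and Nr4a3 are the 3 rat genes of the NR4A family of orphan nuclear receptors, and they were followed here in the striatum and the substantia nigra of rats with a lesion of the dopamine system. They were chosen by name, as the genes named alone by 7, 12 and 11 probe sets, which makes 30 of the 172924 probe sets that name 1 gene and 3 of the 16582 genes measured. The arrays read transcripts at the level of exons in punched tissue of 14 Sprague Dawley rats, all adult males, with 24 arrays in all and 3 arrays in each of 4 groups per tissue. Of these rats 10 gave both tissues and 4 gave 1 tissue. Every rat had surgery on 1 side of the brain and was then injected daily from 3.5 weeks later.

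The groups differed in the toxin, the drug and the behaviour. Dyskinetic rats were lesioned with 6-OHDA (6-hydroxydopamine, a toxin that destroys dopamine neurons), were given levodopa (the precursor of dopamine), and developed the involuntary movements known as levodopa-induced dyskinesia. Non-dyskinetic rats had the same lesion and the same drug and did not develop them. Vehicle rats had the 6-OHDA lesion and were given no levodopa, and intact rats had a sham lesion with saline vehicle and received the drug. Vehicle and intact rats therefore differed in the lesion and in levodopa together, and there was no intact group without levodopa. The labels used here do not state the dose, the side punched or how long before death the last injection was made, and a lesion was accepted when the striatum had lost more than 90% of its dopamine.

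NR4A receptors bind DNA and switch on transcription without a known natural ligand, so that the amount of receptor made largely sets their activity. All 3 genes are immediate early genes: in neurons, calcium and cAMP signals acting through CREB-family and other factors raise their transcription within minutes, and the transcripts are short-lived. Nr4a1 (Nur77) is abundant in the striatum, where dopamine receptor drugs change its level. Nr4a2 (Nurr1) is in addition made all the time by midbrain dopamine neurons, which need it to develop and to keep up the genes for dopamine synthesis and transport. Nr4a3 (Nor1) is the least studied of the family in the brain. Nr4a1 and Nr4a2 can bind DNA as a pair with a retinoid X receptor, and Nr4a3 does not do so.

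In the RefSeq annotation of rat assembly GRCr8, Nr4a1 (gene ID 79240) lies at chr7:134247153-134268044, Nr4a2 (gene ID 54278) at chr3:62098739-62115926 and Nr4a3 (gene ID 58853) at chr5:67157141-67198287. Promoter windows, from 250 bases before to 50 after the start used in the RefSeq promoter table, are shown for the 2 of the 3 genes that matched the RefSeq promoter table, because both genes were higher in dyskinetic striatum than in vehicle striatum and their windows differ in the letters bound by CREB-family factors. Each window is given 5′ to 3′ on the gene's own strand, which is the plus strand at chr7:134259888-134260187 for Nr4a1 and the minus strand at chr3:62104838-62105137 for Nr4a2. Both lie inside the gene spans above, so each start is an internal one. The outer starts of these genes were not examined, so the windows do not show which motifs their other promoters hold. Capitals mark TGCGTCA in Nr4a1 and TGACG in Nr4a2.
Nr4a1: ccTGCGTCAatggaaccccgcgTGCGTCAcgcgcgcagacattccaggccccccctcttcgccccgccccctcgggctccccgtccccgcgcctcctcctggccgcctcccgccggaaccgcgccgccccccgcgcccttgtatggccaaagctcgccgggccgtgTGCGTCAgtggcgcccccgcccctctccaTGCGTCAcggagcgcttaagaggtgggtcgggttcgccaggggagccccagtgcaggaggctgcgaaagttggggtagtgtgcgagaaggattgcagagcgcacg
Nr4a2: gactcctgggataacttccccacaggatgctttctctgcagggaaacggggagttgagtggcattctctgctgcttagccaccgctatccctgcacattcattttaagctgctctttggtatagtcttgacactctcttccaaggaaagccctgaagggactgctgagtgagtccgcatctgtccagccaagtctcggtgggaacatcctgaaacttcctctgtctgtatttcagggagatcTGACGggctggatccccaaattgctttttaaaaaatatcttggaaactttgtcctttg

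TGACG is the short core of the cAMP response element, and it was searched on both strands. The Nr4a1 window held it 4 times, each inside a TGCGTCA read on the other strand, with the TGCGTCA copies starting at -248, -228, -84 and -55 from the start used for the window. The Nr4a2 window held TGACG 1 time, at -8, and no TGCGTCA. Of all 33469 windows of this length in the table, 21.2% held TGACG at least once and 0.236% at least 4 times. TGCGTCA was added to the search after the Nr4a1 window had been read, and 1.9% of windows held it, with 4 copies in 1 window only. Neither window held the full cAMP response element TGACGTCA (1.83% of windows), the NR4A response element AAAGGTCA (1.43%), a CArG box, which is the site of serum response factor (1.64%), or TATAAA (14.2%).

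Each gene is given as the mean log2 value of its probe sets, and each log2 unit doubles the signal. In each tissue 12436 genes were tested with limma over all 12 arrays of the tissue with p adjusted by Benjamini and Hochberg at a threshold of 0.05. Array medians averaged 7.94 for striatum and 8.25 for nigra, and comparisons of level were kept within 1 tissue and 1 gene. Arrays 2 and 3 of each group came from the same rats in both tissues, and so did array 1 in the non-dyskinetic and vehicle groups. In nigra all 14 dopamine neuron markers were called lower in vehicle than in intact rats, where 7.26% of genes were. Among the markers were tyrosine hydroxylase (Th, -2.62) and the dopamine transporter (Slc6a3, -2.92). Of the 12 nigral arrays 2 stood apart, both from vehicle rats: array 1 had a mean of 9.24 over 9 striatal projection neuron markers, against 8.01 to 8.30 in the other 11, and array 3 had a mean of 8.16 over 10 cortical neuron markers, against 7.45 to 7.61. Nigral results called in a comparison with vehicle rats are therefore also given without these arrays, which leaves 1 vehicle array, taken to vary like the other groups. All genes called then numbered 542 for vehicle against intact rats, against 1589 with all arrays, and 19 for dyskinetic against vehicle rats, against 276.

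In striatum all 3 genes were higher in dyskinetic than in vehicle and in intact rats, and Nr4a2 and Nr4a3 were also higher than in non-dyskinetic rats. Nr4a2 was raised most, 10.9-fold against non-dyskinetic rats, and this was the largest rise of the 12436 genes tested in each of the dyskinetic comparisons. In a punch of tissue, more cells that carry a transcript and more transcript per cell cannot be told apart.

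Striatal Nr4a2 stood at 11.02, 10.98 and 9.68 in the 3 dyskinetic arrays, at 7.96, 6.55 and 6.80 in the non-dyskinetic arrays, at 6.82, 7.01 and 6.85 in the vehicle arrays and at 6.76, 6.61 and 6.80 in the intact arrays. The dyskinetic arrays were all above the other 9, with array 3 lower than the other two. Among the rest, non-dyskinetic array 1 was the highest. Means were 10.56 ± 0.76 in dyskinetic and 7.11 ± 0.75 in non-dyskinetic rats (SD, n = 3 each), a difference of 3.45 ± 0.33 (SE, limma adjusted p = 3.1e-05). Against vehicle rats (6.89 ± 0.10) the difference was 3.66, or 12.7-fold (adjusted p = 1.4e-05), and against intact rats (6.72 ± 0.10) it was 3.84, or 14.3-fold (adjusted p = 4.9e-06). All 3 calls were kept under each of 14 alternative settings tried per comparison.

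Striatal Nr4a3 stood at 10.10, 10.24 and 9.84 in dyskinetic, 9.33, 7.84 and 9.12 in non-dyskinetic, 8.11, 8.23 and 7.87 in vehicle and 8.04, 7.96 and 7.76 in intact arrays. No dyskinetic array overlapped with another group, and non-dyskinetic arrays 1 and 3 lay between the dyskinetic arrays and the rest while array 2 lay among the vehicle and intact arrays. Against non-dyskinetic rats (8.76 ± 0.80, SD, n = 3) the dyskinetic mean of 10.06 ± 0.20 was 1.30 ± 0.27 (SE) higher, or 2.46-fold (limma adjusted p = 0.0097). This call was lost without dyskinetic array 2 (1.21, adjusted p = 0.057), and the difference was 0.84 (adjusted p = 0.0028) without non-dyskinetic array 2. The rise was 3.97-fold against vehicle rats (1.99, adjusted p = 3.7e-04) and 4.42-fold against intact rats (2.14, adjusted p = 1.1e-04).

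Striatal Nr4a1 stood at 11.30, 11.30 and 10.97 in dyskinetic, 11.04, 9.73 and 10.81 in non-dyskinetic, 10.00, 10.37 and 10.18 in vehicle and 10.33, 9.90 and 9.89 in intact arrays. The dyskinetic arrays overlapped with the non-dyskinetic ones and lay above all vehicle and intact arrays. Against non-dyskinetic rats (10.53 ± 0.70, SD, n = 3) the dyskinetic mean of 11.19 ± 0.19 differed by 0.66 ± 0.25 (SE) and did not pass the test (limma adjusted p = 0.13, unadjusted p = 0.017). This value turned on the non-dyskinetic arrays: it was 0.92 without array 1 (adjusted p = 0.033) and 0.26 without array 2 (adjusted p = 0.41). Nr4a1 rose 2.01-fold against vehicle rats (1.01, adjusted p = 0.026) and 2.22-fold against intact rats (1.15, adjusted p = 0.0076). The call against vehicle rats was lost when dyskinetic array 1 (adjusted p = 0.092) or 2 (0.10) or vehicle array 1 (0.092) or 3 (0.064) was left out.

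So 2 of the 3 genes were called higher in dyskinetic than in non-dyskinetic striatum, where 3.06% of all genes tested were. All 3 were called higher against vehicle rats, where 3.63% of genes were, and against intact rats, where 5.11% were. Dyskinetic arrays lay all above those of the other group for 2 of 3 against non-dyskinetic rats (8.66% of genes), for 3 of 3 against vehicle rats (10.2%) and for 3 of 3 against intact rats (12.7%). These comparisons share their dyskinetic arrays.

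**Figure D1:**
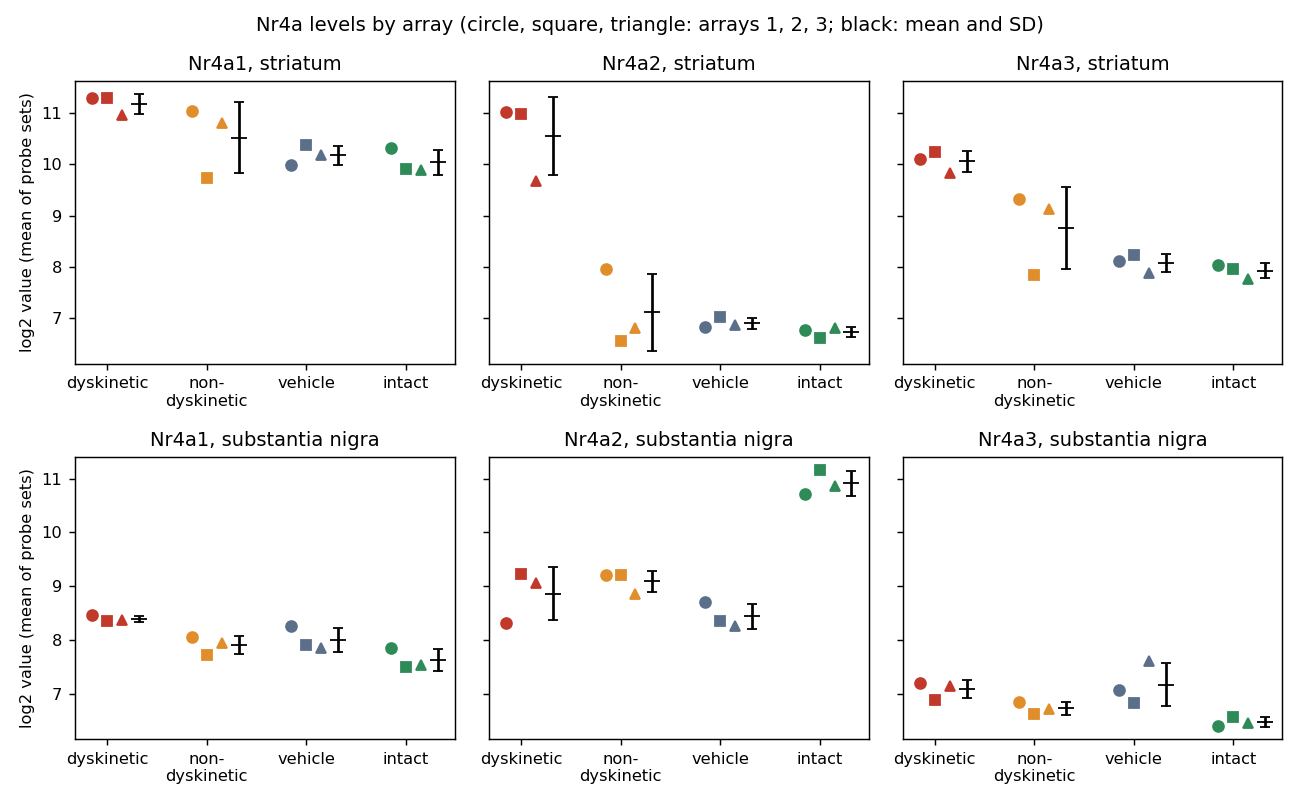
Log2 level of each Nr4a gene (columns) in striatum (upper row) and substantia nigra (lower row), with a circle, square and triangle for arrays 1, 2 and 3 of each group and a black bar for the group mean and SD (n = 3). Dyskinetic striatal Nr4a2 values (9.68 to 11.02) lie above all other striatal ones, and intact nigral Nr4a2 values (10.71 to 11.17) lie above all other nigral ones.

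None of the 3 genes passed the test between non-dyskinetic and vehicle striatum or between non-dyskinetic and intact striatum. Values were spread widely among the 3 non-dyskinetic rats. Nr4a3 was 0.69 ± 0.27 above vehicle rats (SE, limma adjusted p = 0.69, unadjusted p = 0.020) and 0.84 ± 0.27 above intact rats (adjusted p = 0.47, unadjusted p = 0.0063), which made it rank 3 and rank 4 from the top among all genes by size. Without non-dyskinetic array 2 these differences were 1.15 (adjusted p = 0.0018) and 1.30 (adjusted p = 0.0016), and Nr4a1 was 0.89 above intact rats (adjusted p = 0.035). Nr4a2 differed by 0.21 from vehicle rats (adjusted p = 0.91) and by 0.38 from intact rats (adjusted p = 0.73), and both differences were below 0, at -0.22 and -0.044, without non-dyskinetic array 1. Of all genes tested, 0.0322% were called between non-dyskinetic and vehicle rats and 0.0482% between non-dyskinetic and intact rats.

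Vehicle and intact striatum differed by 0.14 for Nr4a1, 0.17 for Nr4a2 and 0.15 for Nr4a3, with limma adjusted p of 0.96 to 0.97 and unadjusted p of 0.57 to 0.61. Vehicle and intact arrays overlapped for Nr4a1 and Nr4a3. For Nr4a2 the lowest vehicle array (6.82) was just above the highest intact one (6.80), and 5.87% of genes had all vehicle arrays above all intact ones. The called share of all genes was 0.442%.

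In substantia nigra the picture differed by gene. Nr4a2 was lower in every lesioned group than in intact rats, 4.15-fold in dyskinetic and 5.56-fold in vehicle rats. Nr4a1 was higher in dyskinetic than in intact rats, 1.70-fold, and Nr4a3 was higher in dyskinetic (1.52-fold) and in vehicle rats (1.62-fold). None of the 3 genes passed the test between dyskinetic and non-dyskinetic nigra.

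Nigral Nr4a2 stood at 8.31, 9.22 and 9.05 in dyskinetic, 9.20, 9.20 and 8.85 in non-dyskinetic, 8.71, 8.35 and 8.26 in vehicle and 10.71, 11.17 and 10.86 in intact arrays. Every intact array lay above all 9 lesioned ones. Against intact rats (10.91 ± 0.23, SD, n = 3), dyskinetic rats (8.86 ± 0.49) fell by 2.05 ± 0.21 (SE, limma adjusted p = 5.7e-05), non-dyskinetic rats (9.08 ± 0.20) fell by 1.83 ± 0.21 (adjusted p = 3.4e-04) and vehicle rats (8.44 ± 0.24) fell by 2.47 ± 0.21 (adjusted p = 1.5e-05). These were the 14th, 9th and 13th largest falls of 12436 genes. Without both vehicle arrays that stood apart, Nr4a2 in vehicle rats fell by 2.56 (adjusted p = 6.4e-04). The 3 comparisons share the intact arrays.

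Among the lesioned groups, the order of nigral Nr4a2 was non-dyskinetic, dyskinetic, vehicle, and no neighbouring pair differed beyond the test's threshold. Dyskinetic rats differed by -0.23 ± 0.21 (SE) from non-dyskinetic rats (limma adjusted p = 0.66), a value that was 0.05 without dyskinetic array 1, and by 0.42 ± 0.21 from vehicle rats (adjusted p = 0.26). Non-dyskinetic rats were 0.65 ± 0.21 above vehicle rats, with no overlap between the arrays, at an unadjusted p of 0.0082 and an adjusted p of 0.51. In that comparison 5.49% of genes had all non-dyskinetic arrays above all vehicle ones, and limma called 0 genes, with 999 of 12436 at an unadjusted p under 0.05.

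Nigral Nr4a1 stood at 8.45, 8.35 and 8.37 in dyskinetic, 8.04, 7.72 and 7.94 in non-dyskinetic, 8.25, 7.91 and 7.84 in vehicle and 7.86, 7.49 and 7.53 in intact arrays. The 3 dyskinetic arrays lay above all 9 others. The dyskinetic mean of 8.39 ± 0.055 was 0.77 ± 0.12 (SE) above the intact mean of 7.63 ± 0.20 (SD, n = 3 each, limma adjusted p = 0.0012). It was 0.49 above non-dyskinetic rats (7.90 ± 0.17, adjusted p = 0.13, unadjusted p = 0.0015) and 0.39 above vehicle rats (adjusted p = 0.10, unadjusted p = 0.0068). Vehicle rats were 0.37 above intact rats (adjusted p = 0.063), a value that passed the test without intact array 1 (0.49, adjusted p = 0.029) or without vehicle array 3 (0.45, adjusted p = 0.047), and was 0.25 (adjusted p = 0.21) without vehicle array 1, where the vehicle level was highest. Non-dyskinetic rats differed from intact rats by 0.28 (adjusted p = 0.25).

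Nigral Nr4a3 stood at 7.20, 6.89 and 7.14 in dyskinetic, 6.85, 6.61 and 6.72 in non-dyskinetic, 7.07, 6.83 and 7.60 in vehicle and 6.40, 6.57 and 6.46 in intact arrays. Each lesioned group lay above all intact arrays, and vehicle array 3, which carried the cortical markers, was the highest of all 12. The difference from intact rats (6.47 ± 0.089, SD, n = 3) was 0.60 ± 0.15 (SE) in dyskinetic rats (7.08 ± 0.17, limma adjusted p = 0.020) and 0.69 ± 0.15 in vehicle rats (7.17 ± 0.39, adjusted p = 0.012). It was 0.25 in non-dyskinetic rats (6.73 ± 0.12, adjusted p = 0.44). The call in dyskinetic rats was lost when dyskinetic array 1 (adjusted p = 0.081) or 3 (0.071) or intact array 1 (0.069) or 3 (0.052) was left out. That in vehicle rats was lost, at 0.35 (adjusted p = 0.18), without both vehicle arrays that stood apart, and was 0.48 (adjusted p = 0.018) without array 3 alone. Dyskinetic rats differed by 0.35 from non-dyskinetic rats (adjusted p = 0.32), with no overlap, and by -0.09 from vehicle rats (adjusted p = 0.77), which turned to 0.25 without both of those arrays. Non-dyskinetic rats differed from vehicle rats by -0.44 (adjusted p = 0.54, unadjusted p = 0.014) for Nr4a3 and by -0.10 (adjusted p = 0.86) for Nr4a1.

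Against intact nigra, 2 of the 3 genes were called higher and 1 lower in dyskinetic rats, where 5.52% of genes were called higher and 10.5% lower. In non-dyskinetic rats 1 was called lower, where 3.97% of genes were. In vehicle rats 1 was called higher and 1 lower, where 5.52% and 7.26% of genes were. Arrays of dyskinetic and intact rats did not overlap for any of the 3, with 16.4% of genes higher and 23.7% lower without overlap. Nr4a3 lay higher and Nr4a2 lower than all intact arrays in non-dyskinetic rats, as did 9.54% and 14.3% of genes, and in vehicle rats, as did 15.3% and 17.5%. Nr4a1 and Nr4a3 had all dyskinetic arrays above all non-dyskinetic ones, as did 7.94% of genes, and 0.241% of genes were called in that comparison. Nr4a1 had all dyskinetic arrays above all vehicle ones, as did 10.2% of genes, and 2.22% of genes were called there.

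**Figure D2:**
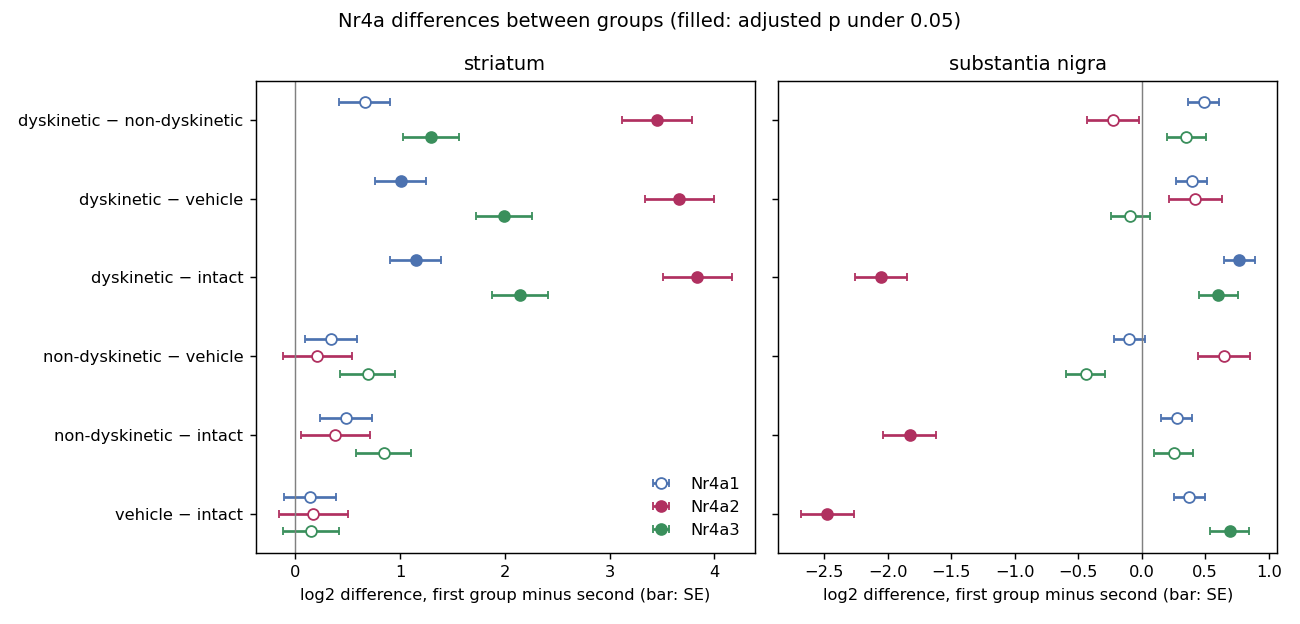
Log2 difference between groups for each Nr4a gene (first group minus second, bar: SE) in striatum (left) and substantia nigra (right), with filled points where limma's adjusted p was under 0.05. Striatal Nr4a2 lies at 3.45 to 3.84 in the 3 dyskinetic comparisons, and nigral Nr4a2 at -2.47 to -1.83 in the 3 comparisons with intact rats.

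Whether the tissues differed was tested over all 24 arrays with the rat as a random block. The dyskinetic minus non-dyskinetic difference of Nr4a2 was 3.62 ± 0.41 (SE) greater in striatum than in nigra (limma adjusted p = 3.2e-05), and that of Nr4a3 was 0.95 ± 0.33 greater (adjusted p = 0.19, unadjusted p = 0.0079). For Nr4a1 the tissues differed by 0.17 ± 0.28 (adjusted p = 0.91). The vehicle minus intact difference of Nr4a2 was 2.66 ± 0.41 greater in striatum (adjusted p = 1.9e-04), and 2.77 (adjusted p = 0.0026) without both nigral vehicle arrays that stood apart. It was -0.23 ± 0.28 for Nr4a1 (adjusted p = 0.74) and -0.53 ± 0.33 for Nr4a3 (adjusted p = 0.42). The 1 gene of 3 called greater in striatum in each test compares with 1.31% of genes for dyskinesia and 4.09% for vehicle against intact. Of the groups whose 3 rats all gave both tissues, non-dyskinetic rats ran in 1 order for Nr4a1 and Nr4a3 in both tissues (rat 1, rat 3, rat 2, from the highest). Vehicle rats did not: Nr4a1 and Nr4a3 were highest in rat 2 in striatum, and in nigra Nr4a1 was highest in rat 1 and Nr4a3 in rat 3. The nigral arrays of vehicle rats 1 and 3 are those that stood apart.

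The probe sets of Nr4a2 moved together. In striatum all 12 were higher in dyskinetic than in non-dyskinetic rats, by 2.74 to 4.36 (median 3.33), and limma fitted to single probe sets called 12 of 12, where 0.307% of the 159800 probe sets tested were called higher. With only the 6 arrays of these groups in the fit it called 0 of the 12 and 0 of all probe sets, while 12 of 12 had an unadjusted p under 0.05 and adjusted p ran from 0.078 to 0.14. All 12 were also called higher against vehicle rats (2.75 to 4.91, where 0.498% of probe sets were) and against intact rats (3.35 to 4.50, where 1.02% were). In nigra all 12 were called lower in dyskinetic (-2.42 to -1.83, where 4.8% of probe sets were), non-dyskinetic (-2.17 to -1.51, where 0.93% were) and vehicle rats (-3.00 to -2.18, where 1.85% were) than in intact rats. Probe sets of a gene share their RNA and are not replicates. The level filter in striatum used the mean over all 12 arrays, so dyskinetic values helped dim probe sets to be tested. Nr4a2 probe set 1 (9.46 in dyskinetic rats) stood at 5.77, 5.66 and 5.86 in non-dyskinetic, vehicle and intact rats. Probe set 12 (10.5 in dyskinetic rats) stood at 6.18, 5.62 and 6.11 in the same order. Whether such probe sets would be tested without the dyskinetic arrays was not examined.

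The probe sets of the other two genes also pointed 1 way in dyskinetic striatum, with fewer calls. All 11 of Nr4a3 were higher than in non-dyskinetic rats, by 0.87 to 2.17, and limma called 0 of the 10 bright enough to be tested, with 10 of 10 at an unadjusted p under 0.05. It called 9 of these 10 against vehicle rats and 10 of 10 against intact rats. Of the 10, probe set 7 (8.64 in dyskinetic rats) stood at 6.46, 5.69 and 5.63 in non-dyskinetic, vehicle and intact rats. Its dyskinetic values therefore helped it to be tested. All 7 of Nr4a1 were higher than in non-dyskinetic rats, by 0.53 to 0.84, with 0 of 7 called and 5 of 7 at an unadjusted p under 0.05, and against vehicle rats 0 of 7 were called with 7 of 7 at that level. In nigra 4 of 7 Nr4a1 probe sets and 4 of 8 tested Nr4a3 probe sets were called higher in dyskinetic than in intact rats, where 1.67% of probe sets were. In vehicle rats these counts were 1 of 7 and 2 of 8, where 0.725% of probe sets were. They were 0 of 7 and 0 of 8 without both vehicle arrays that stood apart, when 11 of 12 Nr4a2 probe sets were called, and also 0 of 7 and 0 of 8 with only the 6 arrays of those groups fitted, where 2 of 7 and 8 of 8 had an unadjusted p under 0.05.

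**Figure D3:**
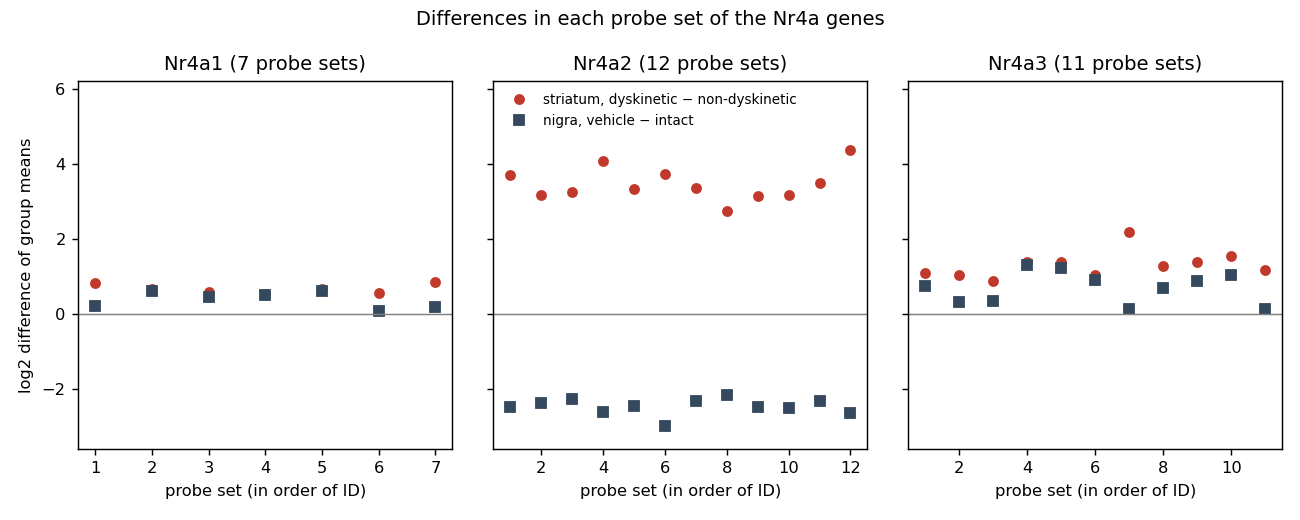
Log2 difference of group means for each probe set of the Nr4a genes, in order of probe set ID, for dyskinetic minus non-dyskinetic striatum (red circles) and vehicle minus intact nigra (dark squares). All 12 Nr4a2 probe sets lie at 2.74 to 4.36 in striatum and at -3.00 to -2.18 in nigra, while those of Nr4a1 and Nr4a3 lie above 0 in both.

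Most of the other listed genes switched on by activity were called higher in dyskinetic striatum. Of the 16 listed (transcription factors of the Fos, Jun and Egr families, Npas4, Atf3 and effectors such as Arc), 13 were measured and 11 tested in striatum. Against non-dyskinetic rats 8 of 11 were called higher, where 3.06% of genes were, and 0 lower, with a median of 1.15 against -0.03 for all genes tested; the 4 largest among those called were Fosb (1.96), Arc (1.23), Npas4 (1.21) and Dusp1, a phosphatase that ends MAP kinase signals (1.17). Egr1 (0.49, limma adjusted p = 0.068), Egr2 (1.18, adjusted p = 0.073) and Jun (0.65, adjusted p = 0.060) did not pass, and the call of Junb (0.99) was lost without dyskinetic array 2 (adjusted p = 0.063). Against vehicle and against intact rats 11 of 11 were called higher, where 3.63% and 5.11% of genes were, with medians of 1.25 and 1.32. The call of Jun against vehicle rats (0.78) held without dyskinetic array 3 and with no other array left out, and was 0.52 (adjusted p = 0.091) without dyskinetic array 1. Between non-dyskinetic and intact rats limma called 0 of 11, with 0 of 11 at an unadjusted p under 0.05, and between non-dyskinetic and vehicle rats 0 of 11, with 2 higher at that level, Egr2 (1.16, unadjusted p = 0.0059) and Egr1 (0.42, unadjusted p = 0.013). Without non-dyskinetic array 2, 1 of 11 was called higher against intact rats and 2 of 11 against vehicle rats. The mean level of the 13 genes was 9.96, 9.91 and 9.64 in dyskinetic, 9.32, 8.30 and 8.87 in non-dyskinetic, 8.48, 8.67 and 8.57 in vehicle and 8.66, 8.51 and 8.52 in intact arrays. The dyskinetic arrays were again all above the rest, and the non-dyskinetic ones ran in the order array 1, array 3, array 2, as for Nr4a1 and Nr4a3.

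In nigra 12 of these genes were tested. In dyskinetic against intact rats 7 of 12 were called higher, led by Egr1 (1.48), Fos (1.35), Npas4 (1.26) and Arc (0.94), and in vehicle against intact rats 6 of 12 were, led by Npas4 (1.07), Egr1 (0.83) and Fos (0.73), where 5.52% of genes were in each comparison. Without both vehicle arrays that stood apart, 1 of 12 was called in vehicle against intact rats, which was Arc (0.57, limma adjusted p = 0.028), and 5 of 12 were higher at an unadjusted p under 0.05. Of the calls lost there, Npas4 (1.19), Fos (0.81) and Junb (0.32) differed by as much as with all arrays, and Egr1 (0.42) and Egr3 (0.13) by less. With all vehicle arrays kept, 3 of 12 were called when 1 intact array, whichever it was, was left out. In dyskinetic against non-dyskinetic rats 3 of 12 were called higher, which were Egr1 (1.26), Arc (0.70) and Junb (0.56), where 0.169% of genes were called higher. None of these 3 calls held without dyskinetic array 1 (adjusted p = 0.060 to 0.17) or 3 (0.051 to 0.086), and that of Egr1 was lost with any of the 6 arrays left out. In dyskinetic against vehicle rats 3 of 12 were called higher, where 0.764% of genes were, and 0 of 12 without dyskinetic array 1 or 3, with 7 of 12 at an unadjusted p under 0.05 when all arrays were used. Without both outlying vehicle arrays 1 of 12 was called there, which was Egr1 (1.06, adjusted p = 0.037), while the 3 lost calls were Junb at 0.48, against 0.49 with all arrays, Arc at 0.38, against 0.42, and Fosb at 0.39, against 0.48. In non-dyskinetic against intact rats limma called 0 of 12, with 5 of 12 higher at an unadjusted p under 0.05, and in non-dyskinetic against vehicle rats 0 of 12, with 4 of 12 lower at that level. Leaving out non-dyskinetic array 2 gave 1 of 12 called higher against intact rats, and leaving out vehicle array 2 gave 1 of 12 called lower against vehicle rats. With all arrays, 0 were called lower in any of these comparisons.

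Among the regulators that act on Nr4a promoters, 11 of 12 listed were measured and tested. Crem, a CREB-family gene that also makes an inducible repressor, was higher in dyskinetic striatum by 0.45 ± 0.094 (SE) against non-dyskinetic, 0.69 against vehicle and 0.93 against intact rats (limma adjusted p = 0.011, 4.4e-04 and 1.8e-05). Srf, serum response factor, was higher by 0.35, 0.49 and 0.35. Against non-dyskinetic rats, without non-dyskinetic array 2, the adjusted p was 0.053 for Crem and 0.077 for Srf, and for Srf it was 0.10 without dyskinetic array 2. The other 9 were not called against non-dyskinetic or vehicle rats, and of them Crtc1, a coactivator of CREB, was called lower against intact rats (-0.34), a call lost without dyskinetic array 1 or 2 or intact array 1 or 2 (adjusted p = 0.070 to 0.10). So 2 of 11 were called higher against non-dyskinetic, vehicle and intact rats, where 3.06%, 3.63% and 5.11% of genes were. The 1 of 11 called lower against intact rats compares with 5.19% of genes. In nigra Crem was again higher in dyskinetic than in intact rats (0.47) and Crtc1 lower (-0.24), although Crtc1 was called without dyskinetic array 2 and with no other array left out. This is 1 of 11 in each direction, where 5.52% of genes were called higher and 10.5% lower. Mef2c, 1 of 11, was called higher in vehicle than in intact nigra (0.52), where 5.52% of genes were. It was 0.20 without both vehicle arrays that stood apart. Ep300, a coactivator, was lower in dyskinetic than in vehicle nigra (-0.39, adjusted p = 0.031), where 1.46% of genes were called lower, and was -0.24 (adjusted p = 0.63) without those arrays.

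The retinoid X receptors and cofactors that work with NR4A proteins were called in few comparisons. Of 9 listed genes 8 were measured, and limma called 0 of 8 in each of the 6 striatal comparisons, with at most 1 higher and 3 lower at an unadjusted p under 0.05. Of all 12436 genes, 4 (non-dyskinetic against vehicle) to 1281 (dyskinetic against intact) were called there, so 0 of 8 is close to that share. Against non-dyskinetic striatum, dyskinetic Rxra, Rxrb and Rxrg differed by -0.06, -0.17 and -0.04 (adjusted p = 0.74, 0.29 and 0.88). In nigra the coactivator gene Ncoa2 was called lower in dyskinetic than in intact and in vehicle rats (-0.28 in each), as were 10.5% and 1.46% of genes. Against vehicle rats Ncoa2 was -0.16 without both vehicle arrays that stood apart.

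Other nuclear receptors served as a comparison family, with 23 of 25 listed genes measured and 22 tested. In dyskinetic striatum 2 of 22 were called higher against non-dyskinetic rats: the vitamin D receptor Vdr (2.11 ± 0.17, SE, limma adjusted p = 7.8e-06) and Ppard, a fatty acid receptor (0.43, adjusted p = 0.025), where 3.06% of genes were called higher. Vdr was dim, with a mean of 6.65 over the striatal arrays, and the dyskinetic arrays raised that mean. In the other groups Vdr lay below the level cut for testing, under which the dopamine neuron markers En2 (6.19) and Slc6a3 (6.16) also fell. Vdr was therefore kept for testing only through its dyskinetic values. Its calls in the dyskinetic comparisons are not independent of that filter. The call of Ppard was lost without dyskinetic array 1 or 2 or non-dyskinetic array 2 or 3 (adjusted p = 0.062 to 0.094). The same 2 were called against vehicle rats (2.21 and 0.49) and intact rats (2.16 and 0.52), and Rarb (-0.33) and Nr2f6 (-0.23) were called lower against intact rats, where 5.19% of genes were. The call of Nr2f6 was lost with any 1 of the 6 arrays left out (adjusted p = 0.085 to 0.17), and that of Rarb without dyskinetic array 1 or 2 or intact array 1 or 3 (0.063 to 0.090). The median over the 22 was -0.02 against non-dyskinetic rats, beside -0.03 for all genes. In nigra 4 of 22 were called higher in vehicle than in intact rats, which were Nr2f2 (0.64), the glucocorticoid receptor Nr3c1 (0.35), Rara (0.28) and Rorb (0.27), where 5.52% of genes were. Without both vehicle arrays that stood apart none of these 4 passed (adjusted p = 0.28 to 0.37), and Esrrb (0.39) and Nr1h2 (0.35) did. In dyskinetic against intact nigra 1 of 22 was called higher, Nr1h2 (0.30), and 1 lower, Rora (-0.25), where 5.52% and 10.5% of genes were. The call of Nr1h2 was lost without dyskinetic array 1 or 3 or intact array 1 (limma adjusted p = 0.059 to 0.071), and that of Rora without intact array 1 (0.057). Against vehicle nigra 1 of 22 was called lower, Ppard (-0.35), where 1.46% of genes were. That call held in 1 of 6 fits with 1 array left out, and the difference was -0.22 without both vehicle arrays that stood apart.

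Genes that depend on Nr4a2 in dopamine neurons were lower in nigra as well. Of the 10 listed, 9 were tested there. Against intact rats 9 of 9 were called lower in dyskinetic (median -1.97), 7 of 9 in non-dyskinetic (median -1.30) and 9 of 9 in vehicle rats (median -2.68). Of all genes 10.5%, 3.97% and 7.26% were called lower in these comparisons. Without both vehicle arrays that stood apart, the median in vehicle rats was -2.65. Among the 9 genes the vesicular monoamine transporter Slc18a2 differed by -2.83, -1.97 and -3.31, and dopa decarboxylase, Ddc, by -2.02, -1.51 and -2.68 in these 3 groups. Th differed by -1.97 in dyskinetic rats and -1.15 in non-dyskinetic rats (adjusted p = 0.048), a call lost with any 1 of the 6 arrays left out (0.068 to 0.19), and the fall of Slc6a3 in non-dyskinetic rats did not pass the test (-1.30, adjusted p = 0.060). Between dyskinetic and non-dyskinetic nigra 1 of the 9 was called lower, the growth factor receptor Ret (-0.62, adjusted p = 0.010), where 0.241% of genes were called in either direction. At an unadjusted limma p under 0.05, 7 of 9 were lower, as were 9 of the 14 dopamine neuron markers, where 1813 of 12436 genes differed in either direction. Both lists hold Th, Ddc, Slc18a2, Slc6a3, Ret and Aldh1a1, so their counts are not separate. The call of Ret was lost without dyskinetic array 1 or non-dyskinetic array 1 or 2 (adjusted p = 0.054 to 0.070). Against vehicle nigra, dyskinetic Ret was called lower (-0.45) and Aldh1a1 higher (0.93), and without both outlying vehicle arrays these were -0.41 (adjusted p = 0.44) and 0.96 (adjusted p = 0.27). With 1 array left out, that call of Ret held only without vehicle array 2, and that of Aldh1a1 was lost without vehicle array 1 (adjusted p = 0.078). Between non-dyskinetic and vehicle nigra limma called 0 of 9, with 7 of 9 higher at an unadjusted p under 0.05, where 999 of 12436 genes differed in either direction. It called 1 of 9 higher without vehicle array 1. The mean of the 14 dopamine neuron markers was 8.53, 8.61 and 9.22 in dyskinetic, 9.43, 9.35 and 9.14 in non-dyskinetic, 8.63, 8.55 and 8.26 in vehicle and 10.45, 10.73 and 10.47 in intact arrays, so intact arrays stood above all others as they did for Nr4a2. Of 10 microglial markers 6 were called higher in dyskinetic, 3 in non-dyskinetic and 2 in vehicle rats than in intact rats, where 5.52%, 0.724% and 5.52% of genes were, and their mean ran over 9.43 to 9.65, 9.34 to 9.76, 9.46 to 9.59 and 9.12 to 9.26 in dyskinetic, non-dyskinetic, vehicle and intact arrays. Of 6 astrocyte markers 2 were called higher in dyskinetic, 0 in non-dyskinetic (2 at an unadjusted p under 0.05) and 2 in vehicle rats, and of 6 oligodendrocyte markers 2, 0 (4 at that level) and 1. Of 4 endothelial markers limma called 1 higher in dyskinetic rats and 0 in each other lesioned group, with 1 at an unadjusted p under 0.05 in each, and no marker of these 4 lists was called lower. Without both outlying vehicle arrays 1 microglial marker and 0 of the other 3 lists were called in vehicle rats, with 2 at an unadjusted p under 0.05 among those 3. Their part in the Nr4a results was not tested.

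In striatum, where Nr4a2 was high in dyskinetic rats, 6 of these dopamine neuron genes were tested. Th was called higher against non-dyskinetic rats (1.15 ± 0.17, SE, limma adjusted p = 9.2e-04), against vehicle rats (0.74, adjusted p = 0.018) and against intact rats (1.04, adjusted p = 0.0011). The call against vehicle rats was lost without dyskinetic array 1 or 2 or vehicle array 2 or 3 (adjusted p = 0.058 to 0.076). Against intact rats Dlk1 was also called higher (0.53, adjusted p = 0.018) and Ptprn2 lower (-0.33, adjusted p = 0.014), calls lost for Dlk1 without dyskinetic array 1 or 2 or intact array 1 (adjusted p = 0.064 to 0.069) and for Ptprn2 without dyskinetic array 1 or intact array 2 (0.052 to 0.061). None of the other 5 was called in the other 2 dyskinetic comparisons, and Ddc differed by 0.03 from non-dyskinetic rats (adjusted p = 0.90). Striatal Th stood at 7.77, 7.39 and 6.84 in dyskinetic, 6.30, 6.02 and 6.23 in non-dyskinetic, 6.69, 6.59 and 6.50 in vehicle and 6.21, 6.18 and 6.50 in intact arrays. The dyskinetic arrays were above all others, and array 3 was the lowest of them, as for Nr4a2. Outside that group Th was dim, with means of 6.18 in non-dyskinetic and 6.30 in intact rats. These lie near the cut for testing, under which Slc6a3 (6.16 over the striatal arrays) and Slc18a2 (5.89) fell. Cortical and claustral neurons also make Nr4a2, and of 8 of their markers tested 1 was called higher in dyskinetic than in non-dyskinetic striatum (Nxph4, 0.55), where 3.06% of genes were. Against vehicle striatum 2 were, Nxph4 (0.60) and Synpr (0.28), and against intact striatum 1 was, Nxph4 (0.74), where 3.63% and 5.11% of genes were. Over the striatal arrays Nxph4 (mean 10.4) and Synpr (10.4) were bright, unlike the listed marker Slc17a7 (6.24). Whether they report cortical cells in these punches was not tested. The call of Synpr was lost without dyskinetic array 1 or 2 or vehicle array 1 or 2 (limma adjusted p = 0.058 to 0.10). The mean of that list ran over 7.59 to 7.71 in dyskinetic, 7.51 to 7.60 in non-dyskinetic, 7.47 to 7.74 in vehicle and 7.48 to 7.60 in intact arrays, which overlapped.

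**Figure D4:**
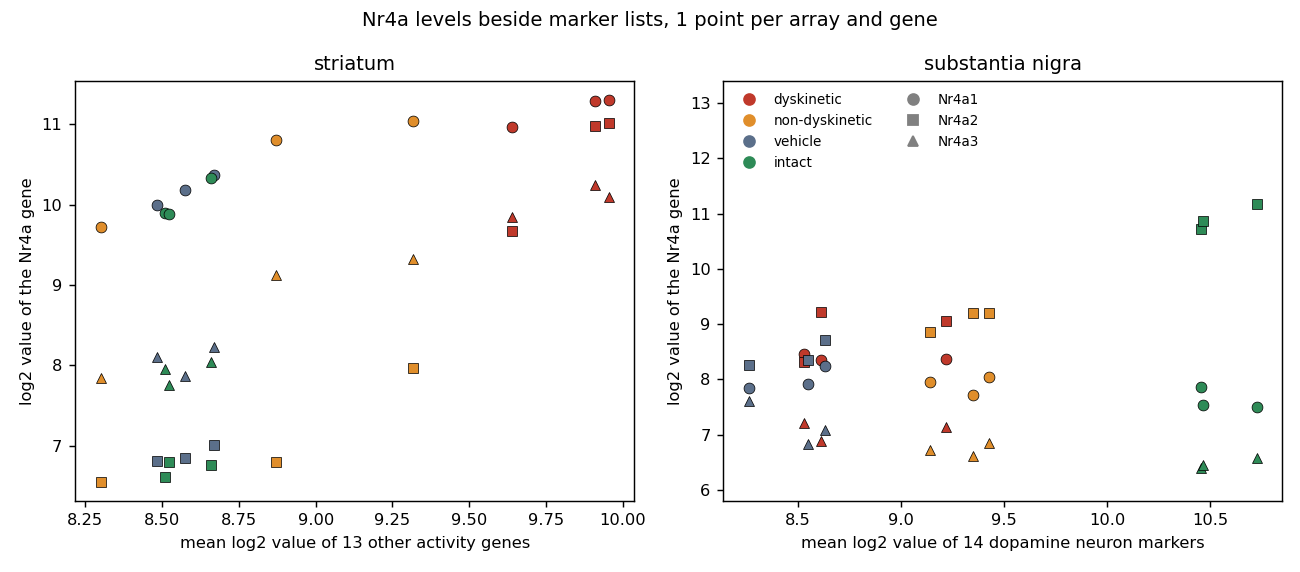
Log2 level of Nr4a1 (circles), Nr4a2 (squares) and Nr4a3 (triangles) in each array against the mean log2 level of 13 other activity genes in striatum (left) and of 14 dopamine neuron markers in substantia nigra (right), coloured by group. In striatum Nr4a2 is at 9.68 or above only in the 3 dyskinetic arrays, where the activity mean is 9.64 to 9.96, and in nigra the 3 intact arrays stand apart at marker means of 10.45 to 10.73.

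The genes most like each member over the 12 arrays of a tissue differed between members and tissues. These are Pearson correlations over arrays that share 4 groups of very different level, given as a description among 12435 genes. In striatum the nearest to Nr4a2 were Cdkn1a, the cell cycle inhibitor p21 (r = 0.996), Gpr3, a receptor that raises cAMP (0.995), Plaur, the urokinase receptor (0.991), Fosb (0.990) and the phosphatase Dusp2 (0.990). Nearest to Nr4a1 were Peli1 (0.960), Junb (0.960), Nr4a3 (0.957), Slc25a25 (0.956) and Fos (0.956), and nearest to Nr4a3 were the salt-inducible kinase Sik2 (0.982), Midn (0.972), Peli1 (0.972), Frmd6 (0.972) and Fos (0.971). Between members, r was 0.957 for Nr4a1 and Nr4a3, 0.914 for Nr4a2 and Nr4a3 and 0.843 for Nr4a1 and Nr4a2.

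In nigra the members parted. Nr4a1 was nearest to the activity genes Fos (r = 0.939), Arc (0.909), Junb (0.904) and Egr1 (0.894) and to Cox6b2 (0.907). Nr4a2 was nearest to Syt4, a synaptotagmin (0.990), Tmem255a (0.987), Pld3 (0.985), Necab3 (0.985) and Cd200 (0.980). Nr4a3 was nearest to the adhesion molecule Icam1 (0.954), Emp3 (0.923), the metalloproteinase inhibitor Timp1 (0.919), Ier3 (0.917) and Marveld1 (0.911). Between members, r was 0.559 for Nr4a1 and Nr4a3, -0.634 for Nr4a1 and Nr4a2 and -0.770 for Nr4a2 and Nr4a3.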

How the data were processed

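Total RNA from 24 tissue punches (RNA integrity number of at least 7) was hybridised to Affymetrix whole-transcript arrays, per the labels' protocols. The authors deposited log2 values per probe set, with RMA, oligo 1.34 and R 3.2.3 named in the submitters' processing notes. RMA corrects background, normalizes across arrays and summarises probes, which commonly compresses fold changes of low genes. No value was missing, and values ran from 2.62 to 14.5. The genome build behind the design is not given in the sources used here.

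The platform annotation names exactly 1 gene for 172924 of the 213067 probe sets, and 1661 probe sets with several genes and 38482 unnamed here were left out. RefSeq's gene table for assembly GRCr8 updated 3700 of its 16633 symbols, while 12878 were current and 55 were kept. Gene values are means over probe sets naming 1 gene. The lowest 25% by tissue mean were left out of tests. Contrasts used limma 3.58.1 (lmFit, eBayes; R 4.3.3, data.table version 1.17.8) over the 12 arrays of a tissue, and the tissue difference used duplicateCorrelation by rat (0.152). The standard error is limma's moderated one. The number of arrays limits the precision, and rats differ biologically per the labels.

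The Nr4a genes and all lists were chosen with earlier results of these data known. Named are the members, the 5 genes most correlated with each per tissue, up to 4 called members of a list by size, and Th, Slc6a3, Slc18a2 and Ddc. Beyond the rule, Rxra, Rxrb and Rxrg, Ddc in striatum, activity genes that missed the test, receptors called without the outlying arrays and list members repeated across comparisons were named after their values were seen. Lists of glia, endothelium, midbrain GABA and glutamate neurons and striatal neurons were used as checks: in striatum between dyskinetic and non-dyskinetic rats, limma called 0 of 6 astrocyte (0 at an unadjusted p under 0.05), 0 of 10 microglial (1), 0 of 6 oligodendrocyte (1), 0 of 4 endothelial (2), 0 of 9 striatal projection neuron (1) and 2 of 6 midbrain GABA and glutamate neuron markers (both higher, with 3 at that unadjusted level). Of all 12436 genes, 654 were called in that comparison, and 3.06% were called higher. Against vehicle striatum 2 of 6 oligodendrocyte markers were called lower, and 2 of 9 projection neuron (Drd1, Tac1) and 2 of 6 midbrain GABA and glutamate neuron markers higher. There 644 of 12436 genes were called, and 3.63% were called higher. Of the midbrain list, Gad1 (11.5), Gad2 (11.6) and Slc32a1 (10.8) were bright over the striatal arrays. Which cells its calls in striatum report was not tested. Correlations of deviations between arrays of the same replicate number ran over -0.27 to 0.38 (median 0.067) in striatum and -0.29 to 0.29 (0.038) in nigra. For different numbers they ran over -0.35 to 0.30 (median -0.040) and -0.37 to 0.26 (-0.0072). The main tests did not pair arrays by number, and whether arrays of 1 number shared a batch was not tested. Alternatives were the probe set summary, filters, variance prior, array weights, quantile normalization, a replicate block, the compared groups only, each array left out and, chosen after seeing the data, both outlying nigral vehicle arrays left out and the array-wise omissions for the gene lists.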

Additional observations from a re-analysis of the deposited data

Results flagged for a closer look

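For Nr4a2 the same comparison differed between the tissues in a test of the difference itself. The dyskinetic minus non-dyskinetic difference was 3.62 log2 units greater in striatum (3.45) than in nigra (-0.23; limma adjusted p = 3.2e-05). The vehicle minus intact difference was 2.66 log2 units greater in striatum (0.17) than in nigra (-2.47; limma adjusted p = 1.9e-04). Groups of 3 arrays were too small for a test of single outlying arrays.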

How the results depend on the processing

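Over 42 differences of the Nr4a genes, 306 alternatives that kept all arrays gave the same direction and side of the threshold in 298 cases, lost the call in 2, gained it in 4 and reversed the direction in 2, and leaving out 1 array at a time gave 265, 9, 7 and 7 of 288. With the median over probe sets Nr4a1 in striatum against vehicle rats was 1.02 (limma adjusted p = 0.051), Nr4a3 in dyskinetic against intact nigra was 0.64 (adjusted p = 0.068), and the Nr4a1 tissue difference of the dyskinesia contrast was -0.13. With array weights Nr4a1 in vehicle against intact nigra was 0.60 (adjusted p = 7.1e-04) and Nr4a3 in dyskinetic against vehicle nigra was 0.026. Within a tissue the labels tie arrays of 1 replicate number by that number only. With the replicate block nigral Nr4a1 was called in vehicle against intact (0.37, limma adjusted p = 0.014), dyskinetic against non-dyskinetic (0.49, adjusted p = 0.040) and dyskinetic against vehicle rats (0.39, adjusted p = 0.047), and no other Nr4a gene result changed its call. Without both outlying nigral vehicle arrays, an alternative added after seeing the data, Nr4a3 was 0.35 in vehicle against intact rats and 0.25 in dyskinetic against vehicle rats, and the other 10 of 12 differences kept direction and side. The cause of these changes was not tested.

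Leaving out 1 array at a time, the difference between dyskinetic and non-dyskinetic striatum ran over 0.26 to 0.92 for Nr4a1, 3.18 to 3.89 for Nr4a2 and 0.84 to 1.58 for Nr4a3. Nr4a1 ran over 0.91 to 1.12 in dyskinetic against vehicle striatum and 0.25 to 0.49 in vehicle against intact nigra, and Nr4a3 over 0.54 to 0.70 in dyskinetic against intact nigra. The tissue difference of the dyskinesia contrast ran over -0.22 to 0.42 for Nr4a1 and 0.50 to 1.23 for Nr4a3. Directions also turned for Nr4a2 in non-dyskinetic striatum against vehicle (-0.22 to 0.49) and intact rats (-0.044 to 0.66), for Nr4a2 in dyskinetic against non-dyskinetic nigra (-0.41 to 0.05), for Nr4a3 in dyskinetic against vehicle nigra (-0.26 to 0.12, with 0.0046 without dyskinetic array 2 and 0.12 without vehicle array 3) and for Nr4a1 in non-dyskinetic against vehicle nigra (-0.18 to 0.028). For Nr4a3 in nigra, leaving out dim probe sets before averaging gave no value, because the gene then fell below the level filter.

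Counts of all genes called ran over 293 to 945 (654 as reported) in dyskinetic against non-dyskinetic striatum, 381 to 1152 (644) against vehicle, 720 to 1926 (1281) against intact, 1 to 12 (4) and 0 to 16 (6) for non-dyskinetic against vehicle and intact, and 25 to 191 (55) for vehicle against intact. In nigra they ran over 0 to 104 (30), 19 to 3393 (276), 1005 to 3307 (1996), 0 to 67 (0), 224 to 991 (584) and 542 to 3725 (1589) in the same order, and over 95 to 317 (190) and 423 to 832 (732) for the tissue differences. With 3 arrays a group, differences near the spread within groups could not be resolved.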
